A study of Arabidopsis thaliana with 4 samples.

Results

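The sites described here are the places in the Arabidopsis thaliana genome that were recovered with one or the other of 2 probe sets, ODD and EVEN, against the long noncoding RNA APOLO, or with both. They came from ChIRP-seq (chromatin isolation by RNA purification, with sequencing of the DNA), in which biotinylated oligonucleotides complementary to an RNA pull that RNA out of crosslinked chromatin with the DNA close to it. All libraries came from Col-0 plants that carried the full-length APOLO region under the constitutive 35S promoter in the vector pB7WG2, grown on solid MS medium with 16 h light and 8 h dark at 23 °C. The ODD probes were used in 2 libraries (ODD 1 and ODD 2), the EVEN probes in 1 (EVEN 1) and control probes against the bacterial LacZ gene in 1 (LACZ 1), and the NEBNext Ultra kit served for all. The control therefore shares the overexpression of APOLO, no library of plants without the transgene was analysed here, and the number of transgenic lines is not given in the labels.

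APOLO is transcribed next to PINOID (PID), a kinase gene of auxin transport, and is known for acting in trans on other auxin-responsive genes, where it takes part in shaping chromatin loops; its own locus is controlled by Polycomb and by RNA-directed DNA methylation. ChIRP probes are split into 2 interleaved sets because a fragment held by the RNA should be recovered with either set, whereas a fragment that pairs with 1 probe directly should be recovered only with the set that holds this probe. Both sets can also pair with the DNA of the APOLO gene and of the transgene.

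A site was a peak on chromosomes 1 to 5 that overlapped no LACZ 1 peak, and overlap meant at least 1 bp. ODD sites were ODD 1 peaks that also overlapped a LACZ-free ODD 2 peak, and EVEN sites were the LACZ-free EVEN 1 peaks. Of 107288 nuclear peaks in the 4 lists, 12654 were ODD sites and 16662 were EVEN sites. The overlap with LACZ 1 had removed 13.4% of the ODD 1 peaks, 13.0% of the ODD 2 peaks and 18.6% of the EVEN 1 peaks. Among LACZ-free ODD 1 peaks, 90.6% (95% interval 90.1 to 91.1, n = 13965) had a LACZ-free ODD 2 peak. The lists differed in length and in peak shape: ODD 2 had 58146 nuclear peaks, ODD 1 16126, EVEN 1 20470 and LACZ 1 12546, and the shortest peak was 94, 47, 54 and 200 bp in that order. Read totals are not known here, so the depth of each library is unknown and a place without a peak may be one where the library was too shallow to call it. Shares have exact binomial (Clopper-Pearson) 95% intervals and differences of shares Newcombe intervals, and both cover counting error only. Ratios of medians have limits that divide the 95% order-statistic limits of one median by the opposite limits of the other. With 1 EVEN and 1 LACZ library no test across replicates was possible and no p-value is given. Fold enrichment is the authors' value of each peak over the local background of its own library, so that folds of different lists are set side by side but not compared in size.

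Under this rule most sites belonged to 1 probe set. Of the ODD sites, 2538 overlapped an EVEN site, or 20.1% (19.4 to 20.8). Of the EVEN sites, 2562 overlapped an ODD site, or 15.4% (14.8 to 15.9). This left 10116 ODD-only and 14100 EVEN-only sites. An ODD peak of some kind, removed ones included, lay at 56.9% of the EVEN sites. As background, the nuclear peaks covered 2.01 Mb in ODD 1, 13.0 Mb in ODD 2 and 2.32 Mb in EVEN 1, of 119145055 bases. A site is wider than a base and the LACZ-free peaks cover less, so these values are for scale only. The overlaps of ODD with EVEN sites formed 2596 pairs with a median overlap of 74 bp. Near the limit of 1 bp, 73 ODD sites overlapped an EVEN site by 1 to 10 bp, with a median ODD 1 fold of 4.73 and a median width of 112 bp. Just outside it, 67 ODD-only sites lay 0 to 9 bp from an EVEN site, with a median fold of 4.73 and a median width of 76 bp.

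The EVEN-only class was mixed. A LACZ-free ODD 2 peak lay at 44.1% (43.3 to 45.0) of the EVEN-only sites, or 6225 sites, and ODD 1 had a peak at only 9 of these. At 3.67% only an ODD peak that had been removed for LACZ was present. No ODD peak of any kind lay at 7183 of them, or 50.9% (50.1 to 51.8). For the ODD-only class the rule left little room for such cases, as only 1 EVEN list existed. Of its 10116 sites, 10108 had no EVEN 1 peak, removed ones included, so the 2 classes cannot be compared in this respect. When ODD 2 alone stood for the ODD probes, the share of EVEN sites shared with ODD was 52.7%, against 15.4% with both ODD libraries and 16.5% with ODD 1 alone. How far an EVEN site counts as private to the EVEN probes therefore depended on which ODD list it was held against. The distance from probe-specific sites to the other set can be set against the bases near its peaks. Of the 7183 EVEN-only sites with no ODD peak, 54.8% had one within 500 bp and 75.9% within 1 kb, where 47.5% and 68.3% of all bases lie that close to an ODD peak. Of the 10108 ODD-only sites with no EVEN peak, 19.5% had one within 500 bp and 32.7% within 1 kb, where 16.4% and 28.3% of all bases do. A site is wider than a base, so its share is somewhat higher at the same density, and these shares are near the background.

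The APOLO gene (AT2G34655) held a shared site. On TAIR10 chromosome 2 the ODD 1 peak (14596650 to 14597580) had a fold of 16.6, the ODD 2 peak (14596617 to 14597674) one of 12.4 and the EVEN 1 peak (14596715 to 14597538) one of 14.1. LACZ 1 had no peak in the gene and its nearest was 7946 bp away. All APOLO-probe libraries were high here, and the ODD 1 peak, 931 bp wide, was the second widest of all shared sites. Within 10 kb of APOLO on either side lay 1 shared site, which is APOLO itself, 1 ODD-only and 3 EVEN-only sites. Within 50 kb lay 1 shared, 6 ODD-only and 12 EVEN-only sites. These are densities of 10, 60 and 120 sites per Mb, against 24.1, 83.6 and 117 over chromosome 2. Within 500 kb the densities were 26, 90 and 117.

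Genes reported as APOLO targets fell into different classes. PID (AT2G34650), the neighbour of APOLO, had 3 EVEN-only sites, with EVEN 1 folds of 3.68, 3.68 and 3.94. ODD 1 had no peak in PID or within 1 kb of it, while ODD 2 had 5, with folds between 2.73 and 3.58, so that its sites could not count as ODD sites. WAG2 (AT3G14370), which encodes a kinase of the same family as PID, had 1 shared site and 2 EVEN-only sites. At the shared site the fold was 4.73 in ODD 1, 10.3 in ODD 2 and 3.41 in EVEN 1. One of the EVEN-only sites of WAG2, from 4799122 to 4799258 on chromosome 3, lay under the same ODD 2 peak, which the ODD 1 peak covered only in part. AZG2 (AT5G50300), a transporter gene for purines and cytokinins, had 3 EVEN-only sites and no ODD site. This follows from the rule: an ODD 1 peak with a fold of 8.86 and an ODD 2 peak with a fold of 12.4 overlapped the EVEN 1 peak with a fold of 4.60, but the ODD 2 peak, 804 bp wide, also touched a LACZ 1 peak with a fold of 2.76 and was removed. RHD6 (AT1G66470), a transcription factor gene of root hair development, had a shared site with a fold of 5.20 in ODD 1, 4.37 in ODD 2 and 3.94 in EVEN 1. At PID and AZG2 the EVEN-only sites thus lay at or near peaks of ODD 2.

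**Figure D1:**
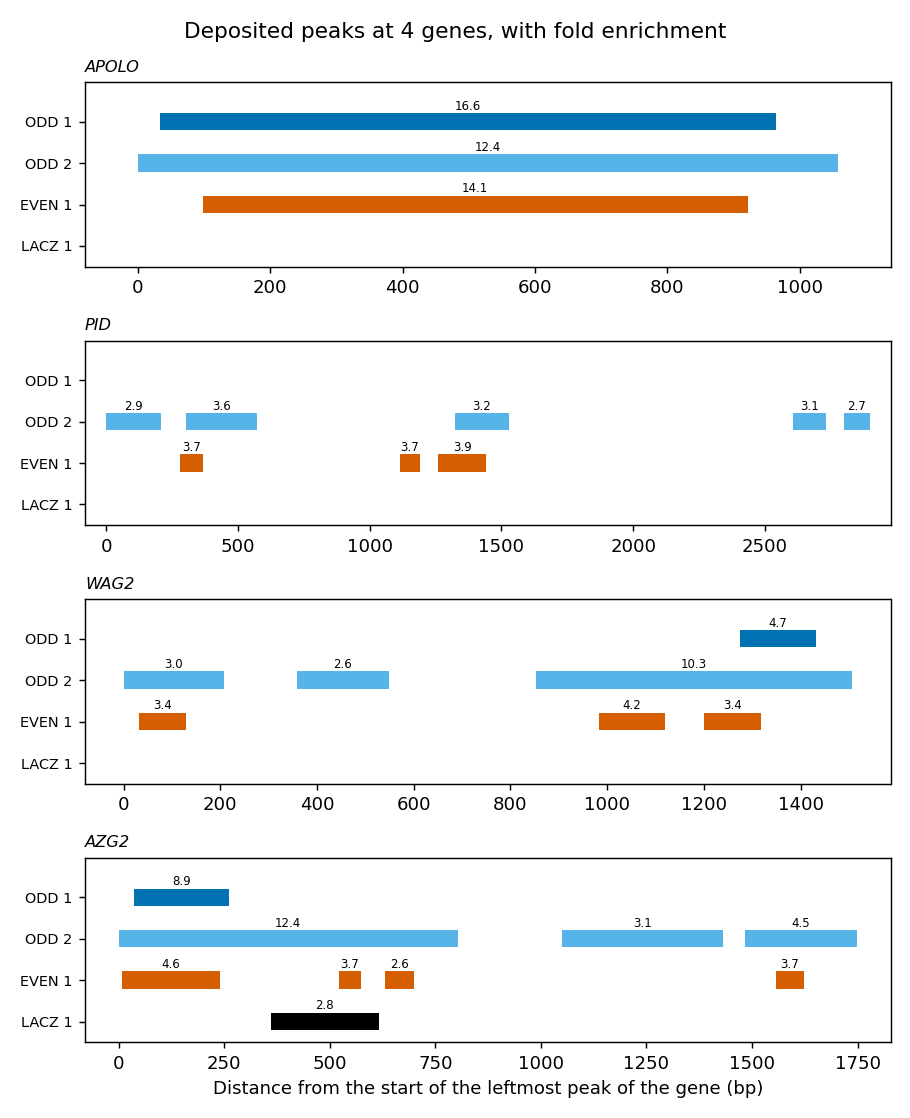
Deposited peaks at APOLO, PID, WAG2 and AZG2, drawn to scale as bars from the start of the leftmost peak (bp), 1 row per library, with the fold enrichment above each bar. APOLO has 1 wide peak in each APOLO-probe library and none in LACZ 1, PID has no ODD 1 peak, and at AZG2 the LACZ 1 peak lies under the widest ODD 2 peak.

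Sharing was most frequent among the strongest peaks of either list. Among the ODD sites ranked by ODD 1 fold and divided into 10 groups of equal size, 38.9% (36.2 to 41.6) were shared in the group of highest fold, with folds of 8.51 and above. In the group of lowest fold, 12.2% (10.4 to 14.1) were shared. Among EVEN sites ranked by EVEN 1 fold, the share went from 38.0% (35.7 to 40.4) in the highest group to 9.24% (7.90 to 10.7) in the lowest. The intervals of the highest and lowest groups did not overlap in either list. A LACZ-free ODD 2 peak lay at 64.1% of the EVEN sites in the highest group and at 45.1% in the lowest. Even in the highest group 30.8% (28.6 to 33.1) of the EVEN sites had no ODD peak of any kind, against 51.2% in the lowest.

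**Figure D2:**
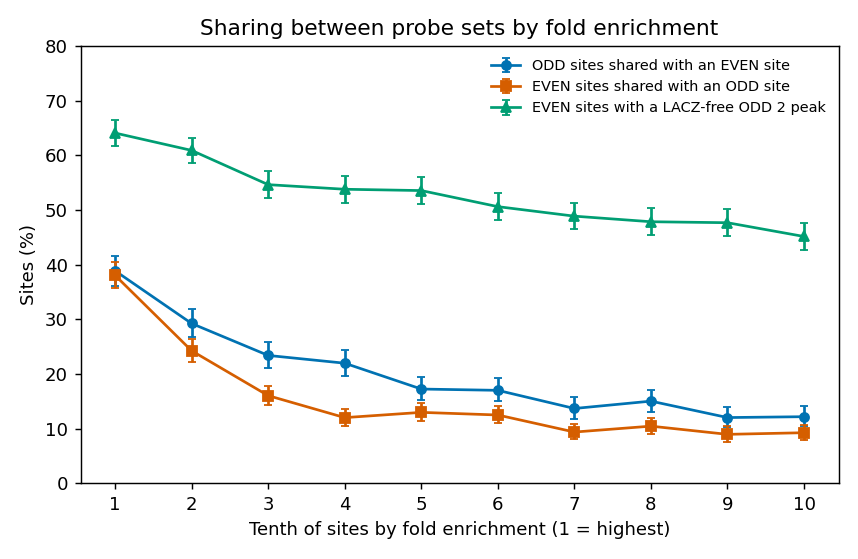
Share of sites (%, with exact 95% intervals) that were shared between probe sets, by 10 equal groups of the list ranked by fold enrichment, from the highest (1) to the lowest (10). Sharing falls from 38.9% to 12.2% for ODD sites and from 38.0% to 9.24% for EVEN sites. EVEN sites have a LACZ-free ODD 2 peak more often than an ODD site throughout, which largely follows from the rule, since each ODD site needs such a peak.

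Shared sites had higher folds than the sites of 1 probe set within each list. The median ODD 1 fold was 5.67 at shared and 4.77 at ODD-only sites, and the median ODD 2 fold at the same places was 7.29 and 6.76. In EVEN 1 the median fold was 3.71 at shared and 3.36 at EVEN-only sites. The ranges between the quartiles overlapped: in ODD 1 they were 4.57 to 7.75 at shared sites and 4.10 to 6.10 at ODD-only sites. At the 2538 shared sites the fold in ODD 1 and the fold in ODD 2 were ranked alike, with a Spearman coefficient of 0.63. The coefficient was 0.17 between ODD 1 and EVEN 1 and 0.05 between ODD 2 and EVEN 1. At the ODD-only sites it was 0.54 between ODD 1 and ODD 2. These coefficients are across sites, which share libraries and depth and are not replicates, and they describe these lists only. Among shared sites, a place strong in one ODD library was thus often strong in the other, while its rank in EVEN 1 was only weakly related. The EVEN 1 folds at these sites had quartiles of 3.27 and 4.52, and what this range does to the coefficients was not tested. Over all ODD sites, those of higher ODD 1 fold were more often shared with EVEN. Summit positions within shared sites are bounded by the overlap that defines them. Summits of ODD 1 and EVEN 1 were a median of 37 bp apart and within 50 bp at 61.7% of the shared sites (59.7 to 63.6). Summits of ODD 1 and ODD 2 were 36 bp apart and within 50 bp at 65.9% (64.0 to 67.8). Summits of ODD 2 and EVEN 1 were 49 bp apart and within 50 bp at 50.6% (48.7 to 52.6).

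**Figure D3:**
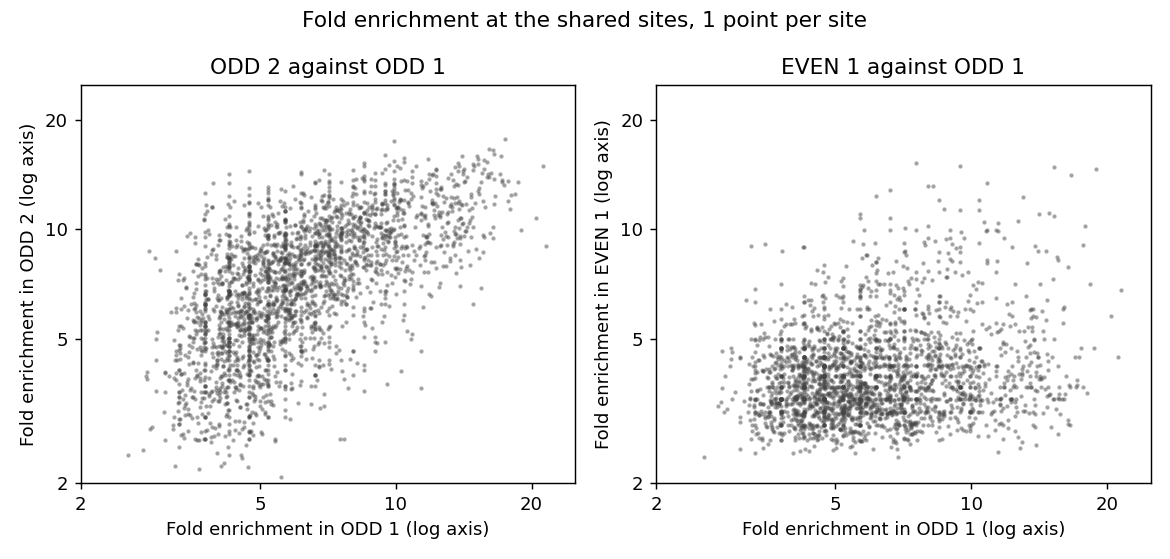
Fold enrichment at the 2538 shared sites on log axes, 1 point per site, with ODD 2 (left) and EVEN 1 (right) against ODD 1. ODD 2 rises with ODD 1 (Spearman coefficient 0.63), while EVEN 1 is only weakly related to ODD 1 (0.17). The EVEN 1 folds have a median of 3.75 and range from 2.36 to 15.2.

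Shared sites were also wider. In ODD 1 the median width was 137.5 bp at shared and 101 bp at ODD-only sites, a ratio of 1.36 (1.30 to 1.43). In EVEN 1 it was 116 bp at shared and 86 bp at EVEN-only sites, a ratio of 1.35 (1.30 to 1.40). Wide peaks have more room to overlap another peak, and width goes with fold. Within each of 4 groups of like fold the ratio was between 1.11 and 1.23 in ODD 1 and between 1.10 and 1.28 in EVEN 1. With peaks of −log10 q of at least 5 alone it was 1.12 in ODD 1 and 1.04 in EVEN 1, where its interval of 0.967 to 1.13 included 1.

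Sites of all classes lay mostly inside protein-coding genes. The summit was in such a gene at 73.1% (72.2 to 73.9) of the ODD-only sites, 75.6% (73.9 to 77.3) of the shared sites and 79.5% (78.9 to 80.2) of the EVEN-only sites. Protein-coding genes take up 54.1% of the bases, and 72.3% of the LACZ 1 peaks also had their summit there. The ODD-only share was close to that of the control list only with chromosome arms and pericentromeres (defined below) pooled. On the arms ODD-only minus LACZ 1 was −5.64 percentage points (−6.73 to −4.56). In the pericentromeres it was 4.10 points (1.44 to 6.77). With both parts pooled, the ODD-only share minus the EVEN-only share was −6.47 percentage points (interval −7.57 to −5.38). The difference was made up by the flanks of genes. Summits outside genes but within 1 kb of one were 14.3% (13.6 to 15.0) of the ODD-only sites, 10.8% (9.65 to 12.1) of the shared sites and 7.70% (7.26 to 8.15) of the EVEN-only sites, against 8.54% of the LACZ 1 peaks. ODD-only sites were thus 6.58 points (5.77 to 7.40) higher in this place than EVEN-only sites. Summits over 1 kb from any gene made up 4.82% of the ODD-only and 3.42% of the EVEN-only sites.

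The larger share of ODD-only sites in gene flanks held on the chromosome arms and in the pericentromeres. On the arms 12.2% of the ODD-only and 5.39% of the EVEN-only sites lay there, a difference of 6.86 points (6.04 to 7.69). In the pericentromeres the shares were 22.8% and 16.6%, a difference of 6.18 points (3.89 to 8.51). Counted only over sites with no peak of the other set, the difference was 4.04 points (3.06 to 5.02). LACZ-free ODD 2 peaks with no EVEN site, a set that does not rest on ODD 1, had 12.5% of their summits in gene flanks, 4.76 points (4.21 to 5.29) above the EVEN-only sites, which are still defined with ODD 1. With ODD 2 alone as the ODD side in both classes, the difference was 2.68 points (1.94 to 3.40). The lower protein-coding share was less steady. Among sites with no peak of the other set it shrank to −2.02 points (−3.34 to −0.697). With peaks of −log10 q of at least 5 alone it changed sign, to 1.81 points with an interval of −0.498 to 4.17 that included 0, while the excess in gene flanks was 2.46 points (0.661 to 4.16). Fold moved with this place in both classes: from the highest to the lowest of 4 fold groups, the protein-coding share went from 69.7% to 76.8% among ODD-only sites and from 73.9% to 82.3% among EVEN-only sites. The part that fold has in the difference between classes was not tested. The gene table used here has no strand, so promoters and the regions behind genes could not be told apart.

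**Figure D4:**
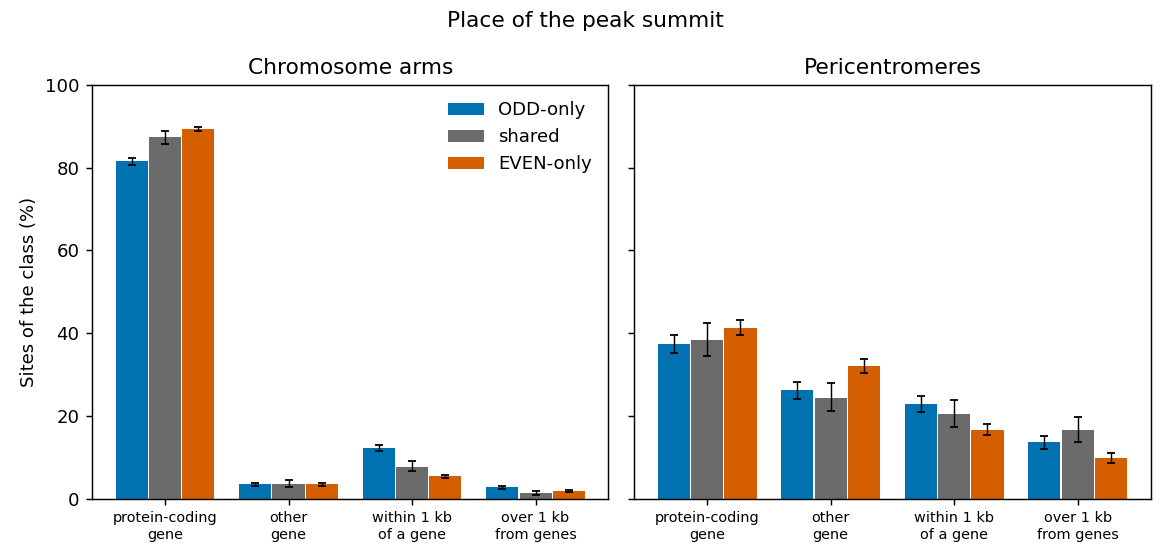
Share of the sites of each class (%, bars, with exact 95% intervals) by the place of the peak summit, on the chromosome arms (left) and in the pericentromeres (right). ODD-only sites have the lowest share in protein-coding genes and the highest share within 1 kb of a gene on the arms (12.2% against 5.39% of the EVEN-only sites).

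EVEN-only sites with an ODD 2 peak and those without any ODD peak differed in place. Where an ODD 2 peak was present, 84.7% (83.8 to 85.6) of the summits were in protein-coding genes. Another 5.06% lay outside genes but within 1 kb of a gene of any type. Where no ODD peak was present, these shares were 75.1% (74.1 to 76.1) and 10.2%. The EVEN-only sites most private to the EVEN probes were in this respect nearer to the ODD-only sites. Inside protein-coding genes, summits lay a median of 564 bp from the nearer end of the gene at ODD-only sites, 519 bp at EVEN-only and 457 bp at shared sites, against 620 bp for LACZ 1 peaks. Relative to the length of the gene, the median was 0.224 at ODD-only, 0.243 at EVEN-only and 0.211 at shared sites. Within 200 bp of an end lay 14.4% (13.6 to 15.2) of the ODD-only and 12.9% (12.3 to 13.6) of the EVEN-only summits. At EVEN-only sites with no ODD peak this share was 15.1% (14.1 to 16.0), so the order of the classes was not kept there. For LACZ 1 peaks it was 9.94% (9.33 to 10.6). The genes themselves were longer at ODD-only sites, with a median of 2780 bp against 2484 bp at EVEN-only and 2406 bp at shared sites. Their median was 2633 bp at EVEN-only sites with no ODD peak and 2630 bp at LACZ 1 peaks.

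Other gene types held few sites. Pseudogenes had 5.44% (5.003 to 5.90) of the ODD-only, 6.72% (6.32 to 7.15) of the EVEN-only and 4.81% (4.01 to 5.71) of the shared summits, all below the 11.3% of the LACZ 1 list. Before the LACZ filter they had 6.44% of the ODD 1, 8.28% of the ODD 2 and 7.08% of the EVEN 1 summits. Genes of long noncoding RNAs had 0.890% of the ODD-only, 0.965% of the EVEN-only and 1.26% of the shared summits, with overlapping intervals. Transfer RNA genes, short genes read by another polymerase, had 1 ODD-only and no EVEN-only summit, and among shared sites no ODD 1 and 1 EVEN 1 summit. Counted by gene with a window of 1 kb, 110 of 625 transfer RNA genes had an ODD-only and 138 an EVEN-only site, or 17.6% and 22.1%, against 31.6% and 39.4% of all nuclear genes, and 6.56% had a shared site against 9.24% of all nuclear genes. Small nucleolar RNA genes, which guide the modification of ribosomal RNA, have a median length of 92 bp. Of 287 such genes, 67 had an ODD-only, 75 an EVEN-only and 18 a shared site. These are 23.3%, 26.1% and 6.27%, against 31.6%, 39.4% and 9.24% of all nuclear genes.

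Along the chromosomes ODD-only and EVEN-only sites, which hold no peak over a LACZ 1 peak, were fewer near the centromeres than the length there would give. By chromosome, shared sites were 22.6% (21.0 to 24.3) on chromosome 1 and 18.7% (17.2 to 20.2) on chromosome 2, which hold 25.5% and 16.5% of the bases. The pericentromere was set at 3 Mb to the left and right of the 1 Mb with fewest protein-coding genes, and holds 25.2% of the bases. It held 19.2% (18.4 to 19.97) of the ODD-only, 20.5% (19.8 to 21.2) of the EVEN-only and 24.0% (22.3 to 25.7) of the shared sites, against 27.5% of the LACZ 1 peaks. Before the LACZ filter it held 23.7% of the ODD 1, 22.2% of the ODD 2 and 23.5% of the EVEN 1 nuclear peaks, so the unfiltered lists were nearer to the share of bases. ODD-only sites were 1.31 points (−2.32 to −0.289) below EVEN-only sites. This small difference was −0.174 points with an interval that included 0 (−1.17 to 0.825) when ODD 1 alone stood for the ODD probes, and −0.928 (−2.01 to 0.156) when sites within 500 bp of a LACZ 1 peak were left out. Between sites with no peak of the other set it was −3.88 points (−5.12 to −2.64). EVEN-only sites were the more pericentromeric class on each of the 5 chromosomes, with overlapping intervals on each. In the innermost 1 Mb on either side the density was 47.8 sites per Mb for ODD-only and 87.5 for EVEN-only, and between 4 and 5 Mb it was 90.0 and 126.

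Shared sites were more often pericentromeric than ODD-only sites, by 4.81 points (3.01 to 6.67). Part of this came from the copy of the mitochondrial genome that lies in the pericentromere of chromosome 2, taken here as 3.2 to 3.55 Mb. It held 55 shared, 7 ODD-only and 30 EVEN-only sites, and without it the difference was 3.18 points (1.41 to 5.02). With ODD 2 alone as the ODD side, where 16.2% of the ODD peaks were shared, the difference turned to −1.80 points (−2.73 to −0.851). The greater share of shared sites near centromeres thus rests on ODD 1.

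**Figure D5:**
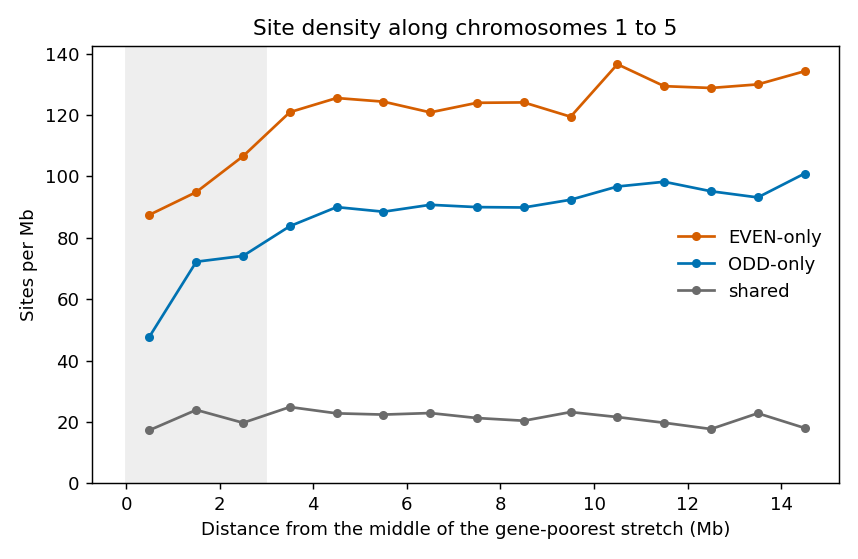
Sites per Mb (points, 1 Mb steps) against the distance from the middle of the gene-poorest stretch of each chromosome, summed over chromosomes 1 to 5, with the pericentromere shaded and steps that cover under 1 Mb left out. ODD-only sites go from 47.8 per Mb in the innermost step to 90.0 between 4 and 5 Mb, EVEN-only sites from 87.5 to 126, and shared sites from 17.3 to 22.8.

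The strongest ODD-only sites had folds well above the median of their class. The first was in CRF11 (AT3G25890), a gene of the cytokinin response factor family, at 9475681 to 9475983 on chromosome 3, with a fold of 20.3 in ODD 1 and 15.6 in ODD 2. EVEN 1 had a separate peak 181 bp away, and the nearest LACZ 1 peak was 1008 bp away. AT5G62950 followed with folds of 19.9 and 15.2 in ODD 1 and ODD 2, and the nearest EVEN 1 peak was 5672 bp away. At AT5G15690 the libraries ranked less alike, with 18.7 in ODD 1 and 6.91 in ODD 2. MBD5 (AT3G46580), a methyl-CpG-binding protein gene, had 17.5 in ODD 1 and 13.2 in ODD 2 at 17148560 to 17148852 on chromosome 3. Of the other 4 sites of highest fold, 3 were in the pseudogenes AT4G02314, AT3G30803 and AT5G28165 and 1, at 15873821 to 15874079 on chromosome 4, was over 1 kb from any gene. Their folds were between 17.0 and 18.3 in ODD 1 and between 9.65 and 14.5 in ODD 2. The widest ODD-only sites were 560 bp near CLC-D (AT5G26240, a chloride channel family gene), 521 bp in NAC014 (AT1G33060, a NAC transcription factor gene) and 515 bp in LRX1 (AT1G12040, a leucine-rich repeat extensin of root hair walls). All ODD-only sites named here were present in both ODD libraries by the rule, and none overlapped an EVEN 1 peak.

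The strongest EVEN-only sites had a varied record in the ODD lists, which the rule for this class allows. The highest, at 9819306 to 9819538 on chromosome 1, was over 1 kb from any gene, had a fold of 12.1 in EVEN 1 and its nearest ODD peak was 4189 bp away. AT3G23930 had a fold of 10.4 with no ODD peak over it, the nearest being an ODD 1 peak 259 bp away. At AT3G19070, fold 11.9, an ODD 2 peak of fold 3.31 overlapped the site. Near TIC40 (AT5G16620), a gene for a protein of the import machinery of the chloroplast envelope, the EVEN 1 fold of 10.8 met an ODD 2 fold of 7.02 and no ODD 1 peak. At SKIP16 (AT1G06110), an F-box protein gene, an EVEN 1 fold of 10.2 met an ODD 2 fold of 7.19. Near the noncoding gene AT4G05660 the EVEN 1 fold was 11.8 and the ODD 2 fold 12.3, and at the pseudogene AT1G47816 they were 10.2 and 2.59. Near AT5G49465 the EVEN 1 fold of 11.0002 met folds of 15.2 in ODD 1 and 9.85 in ODD 2, and the site was EVEN-only since the ODD 2 peak had been removed for LACZ. Of the 8, 2 thus had no ODD peak at all. The widest EVEN-only sites were 622 bp in AT2G22795, 611 bp in AT5G37793 and 560 bp in AT5G51795, and at AT5G37793 both ODD libraries had peaks, with folds of 12.5 and 9.45.

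Among shared sites of highest joint rank, 3 of 8 lay in the mitochondrial copy on chromosome 2. These were AT2G07648, AT2G07667 and AT2G07677, with ODD 1 folds of 18.9, 15.3 and 14.9 and EVEN 1 folds of 14.7, 10.9 and 11.1. Reads of the mitochondrial genome and of this copy can be nearly identical, so the source of these peaks is uncertain. The first site outside it was APOLO itself. AT5G25756 had folds of 17.9 in ODD 1, 11.4 in ODD 2 and 10.2 in EVEN 1, from 8962053 to 8962570 on chromosome 5 in ODD 1. The pseudogene AT5G26283 had 15.2, 15.1 and 14.8. AT1G56670 had 17.7, 11.9 and 9.04. The site near the noncoding gene AT2G08465 had 14.1, 14.4 and 11.03. The widest shared site was 987 bp in ODD 1 at AT4G08410, where the EVEN 1 peak was far narrower, from 5339100 to 5339163 on chromosome 4, with a fold of 4.02. At AT4G22495 the ODD 1 peak of 676 bp and the EVEN 1 peak covered nearly the same bases, from 11852155 to 11852839 in EVEN 1.

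Genes with a site of each class were counted next. Of 27444 protein-coding genes, 9741 (35.5%) had an ODD-only, 12022 (43.8%) an EVEN-only and 2817 (10.3%) a shared site in the gene body or within 1 kb. A gene could hold several classes, and 4496 held an ODD-only and an EVEN-only site, which is 46.2% of the former and 37.4% of the latter, near the 43.8% and 35.5% of all genes. With shared sites included, 6862 genes had both an ODD and an EVEN site, 59.3% of the 11567 genes with an ODD site and 50.4% of the 13615 with an EVEN site, where 49.6% of all genes had an EVEN and 42.1% an ODD site. In 4045 of these 6862 genes the sites lay at separate places. Genes with an ODD site and no EVEN site numbered 4705, and genes with the reverse 6753. The order of the classes depended on the lists: without ODD 1, 22650 genes had an ODD-only and 7410 an EVEN-only site, and at −log10 q of at least 5 the counts were 6213 and 2097. Long genes held sites more often: from the shortest to the longest of 4 equal groups of genes, the share with an ODD-only site went from 22.3% to 47.7% and the share with an EVEN-only site from 32.5% to 53.0%.

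Genes with several sites of 1 class were more frequent in the EVEN-only class. It had 3 or more sites in 417 genes, and the ODD-only class in 105. The EVEN-only class is also the larger, with 14100 sites against 10116, and ODD-only sites had to be present in both ODD libraries. The part that these have in the difference was not tested. The most ODD-only sites, 5, were in AT1G67120, a gene of 26211 bp, with ODD 1 folds between 4.21 and 7.13. ENT1 (AT1G70330, a nucleoside transporter gene), PIP1C (AT1G01620, a plasma membrane aquaporin gene), HRGP1 (AT3G54590, a hydroxyproline-rich glycoprotein gene) and AT3G05545 had 4 each. In ENT1 and PIP1C, 4 separate ODD 1 peaks lay under 1 ODD 2 peak, with an ODD 2 fold of 7.17 and 7.34, and EVEN 1 had no site in either gene. Among EVEN-only sites, AT4G37250, PIN3 and CRK3 had 6 each, and ILR2 and CYP81F2 had 5 each. PIN3 (AT1G70940) encodes an auxin efflux carrier, and its 6 sites had EVEN 1 folds between 2.89 and 4.20, from 26743208 to 26744641 on chromosome 1. ODD 2 peaks with folds between 2.78 and 4.90 overlapped 4 of them, and ODD 1 had no peak at any. CYP81F2 (AT5G57220), a cytochrome P450 gene of indole glucosinolate metabolism, had folds between 3.68 and 4.20, and 4 of its 5 sites had an ODD 2 peak. In all these genes a run of separate sites can be the broken outline of 1 broader region, so sites of a gene are not independent.

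Genes of auxin transport, which move the hormone between cells, had ODD-only sites in 10, EVEN-only sites in 15 and shared sites in 3 of 23 members, or 43.5%, 65.2% and 13.0%, against 35.5%, 43.8% and 10.3% over all protein-coding genes. The members have a median length of 3002 bp against 2078 bp over all protein-coding genes. PIN7 (AT1G23080), an efflux carrier gene, had an ODD-only site of fold 11.3 in ODD 1 and 9.92 in ODD 2. It also had a separate shared site of fold 3.34 in ODD 1 and 3.58 in EVEN 1. ABCB4 (AT2G47000), a transporter gene of the ABC family, and LAX2 (AT2G21050), an influx carrier gene, had ODD-only sites with ODD 1 folds of 10.2 and 9.04. WAG1 (AT1G53700), a kinase gene of the PID family, had a shared site of fold 4.73 in ODD 1, 7.68 in ODD 2 and 4.20 in EVEN 1. Auxin synthesis genes had ODD-only sites in 3, EVEN-only sites in 12 and shared sites in 2 of 14, or 21.4%, 85.7% and 14.3%. YUC2 (AT4G13260), a flavin monooxygenase gene of auxin synthesis, had an ODD-only site of fold 7.57 and a shared site of fold 5.67 in ODD 1. The EVEN 1 fold at the shared site of YUC2 was 4.20. TAA1 (AT1G70560), the aminotransferase gene of the step before, had an ODD-only site of fold 5.67 and an EVEN-only site of fold 4.73 at separate places. YUC4 (AT5G11320) and YUC1 (AT4G32540) had EVEN-only sites with folds of 3.94 each and no ODD peak over them. YUC1 also had a separate shared site, with folds of 4.26 in ODD 1, 5.03 in ODD 2 and 3.94 in EVEN 1.

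Aux/IAA genes, which encode repressors of auxin response, had ODD-only sites in 13, EVEN-only sites in 14 and shared sites in 5 of 29, or 44.8%, 48.3% and 17.2%, against 35.5%, 43.8% and 10.3% over all protein-coding genes. IAA18 (AT1G51950) had the highest ODD-only fold by ODD 1, 12.3, with 13.7 in ODD 2. IAA2 (AT3G23030) had a shared site of fold 10.9 in ODD 1, 13.4 in ODD 2 and 8.07 in EVEN 1. IAA30 (AT3G62100) had an EVEN-only site of fold 6.57. ARF genes, which encode the auxin response factors that the repressors bind, had 8, 10 and 2 of 23, or 34.8%, 43.5% and 8.70%. ARF4 (AT5G60450) had an ODD-only site with folds of 12.0 and 11.5 in ODD 1 and ODD 2, and ARF6 (AT1G30330) an EVEN-only and a separate shared site. SAUR genes, short genes rapidly induced by auxin with a median length of 815 bp, had 19, 34 and 3 of 80, or 23.8%, 42.5% and 3.75%. By ODD 1 fold, the highest SAUR sites were the shared site at AT1G29420, 16.5 in ODD 1 and 16.2 in ODD 2, and the ODD-only site at AT4G00880, 16.4 and 14.7. The EVEN 1 fold at AT1G29420 was 3.68. GH3 genes, which encode enzymes that join auxin and other acids to amino acids, had 4, 7 and 1 of 9, or 44.4%, 77.8% and 11.1%. GH3.1 (AT2G14960) held the shared site, with a fold of 7.61 in ODD 1 and 2.78 in EVEN 1.

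Genes of DNA methylation had ODD-only sites in 6, EVEN-only sites in 11 and shared sites in 4 of 15, or 40%, 73.3% and 26.7%, against 35.5%, 43.8% and 10.3% over all protein-coding genes. They are long, with a median of 6357 bp. RDR2 (AT4G11130), the RNA polymerase that makes double-stranded RNA for this pathway, had a shared site of fold 12.3 and an ODD-only site of fold 8.50 in ODD 1. At its shared site the EVEN 1 fold was 4.70. CMT3 (AT1G69770), a DNA methyltransferase gene, and AGO4 (AT2G27040), an Argonaute gene, had shared sites with ODD 1 folds of 7.09 and 6.14. Their EVEN 1 folds were 4.73 and 3.89. DME (AT5G04560), a DNA glycosylase gene that removes methylated cytosine, had an ODD-only site of fold 8.07. Polycomb genes had ODD-only sites in 2, EVEN-only sites in 6 and shared sites in 0 of 11, or 18.2%, 54.5% and 0%. One of the EVEN-only sites was in the gene of the H3K27me3 reader LHP1, listed as TFL2 (AT5G17690), with a fold of 4.26 in EVEN 1 and an ODD 2 peak of fold 3.83. Cytokinin genes had ODD-only sites in 5, EVEN-only sites in 4 and a shared site in 1 of 9, or 55.6%, 44.4% and 11.1%. The receptor gene WOL (AT2G01830) held the shared site, with folds of 6.24 in ODD 1, 8.88 in ODD 2 and 3.98 in EVEN 1. The receptor genes HK3 (AT1G27320) and HK2 (AT5G35750) had ODD-only sites with ODD 1 folds of 8.73 and 5.67.

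WRKY transcription factor genes had ODD-only sites in 28, EVEN-only sites in 39 and shared sites in 12 of 71, or 39.4%, 54.9% and 16.9%, against 35.5%, 43.8% and 10.3% over all protein-coding genes. WRKY21 (AT2G30590) held their highest shared site by ODD 1 fold, at 10.2, with an EVEN 1 fold of 3.43. Arabinogalactan and fasciclin-like cell wall protein genes had 18, 23 and 9 of 50, or 36%, 46% and 18%. Their shared sites included AGP31 (AT1G28290), FLA13 (AT5G44130) and AGP27 (AT3G06360), with ODD 1 folds of 11.6, 10.4 and 10.1. The EVEN 1 folds at these sites were 3.41, 3.58 and 4.02. LRX genes, which encode extensins with leucine-rich repeats, had EVEN-only sites in 3 of 3 and an ODD-only site in 1. At LRX2 (AT1G62440) the EVEN-only site, of fold 9.28, coincided with peaks of fold 8.59 in ODD 1 and 10.8 in ODD 2, of which at least 1 had been removed for LACZ. Response regulator (ARR) genes of cytokinin signalling had 4, 11 and 3 of 24, or 16.7%, 45.8% and 12.5%. Light-harvesting protein genes of the chloroplast had 6, 8 and 2 of 20, or 30%, 40% and 10%. Genes with ribosomal protein symbols had 21, 22 and 7 of 48, or 43.8%, 45.8% and 14.6%. These lists are small and chosen with earlier results known, so their counts are descriptions.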

How the data were processed

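The authors deposited a MACS2 peak list on TAIR10 for every library and pooled none. Their processing notes name CASAVA 1.8.2, Trimmomatic, Bowtie2 and MACS2. Versions of the last 3, calling options and any control library used in calling were not given. Per the file headers, the authors' values of a peak are its limits, its summit, the pileup signal there, the fold enrichment over the local background of the library, and −log10 of a p-value and a q-value. Fold was used to describe and rank peaks within a list, and −log10 q to filter. Each length, fold and number of peaks depends on depth, fragment length and calling settings together, and read totals were not used.

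From the lists, peaks on chromosomes 1 to 5 that overlapped a LACZ 1 peak were removed, and the others were joined by overlap of at least 1 bp. Summits were placed against a RefSeq gene table of TAIR10.1, which gives no strand and no exons, so promoters, exons and introns were not told apart. Its fit to the files was checked by moving the summits: 76.7% of the summits of ODD-only, shared and EVEN-only sites were in protein-coding genes with no shift, against at most 65.5% with shifts of 500 bp to 3000 bp, and the highest share was at no shift on 5 of 5 chromosomes. Repeats were not masked and mappability was not used. The steps were tested on simulated peaks. Python 3.11.15, pandas 2.3.3, NumPy 2.4.6, SciPy 1.17.1 and matplotlib 3.10.9 were used.

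The labels call the libraries independent but name no separate cultures or plants. They number ODD 1, EVEN 1 and LACZ 1 alike and ODD 2 apart from these. Whether libraries of like number were made together, and ODD 2 separately, is not given. A batch of ODD 2 can therefore not be told apart from its other differences. Named are, in each class, the 8 sites of highest fold (for shared sites, by the sum of the ranks in ODD 1 and EVEN 1) and the 3 widest, APOLO, PID, WAG2 and AZG2, the 5 genes with most sites of a class, and up to 3 members per gene list and class by fold. The comparison, the 16 gene lists and the alternatives were chosen with earlier results of these data known. Alternatives were a stricter overlap, peaks of −log10 q of at least 5, lists of equal length, summit windows of 200 bp, 2 other LACZ filters, each ODD library left out, a stricter EVEN-only class, and others of gene window and chromosome part. Leaving out the pericentromeres and asking for no deposited peak of the other set were chosen after seeing the data, and so were the count of named sites that stayed in their class, the gene-flank difference and the pericentromeric difference between shared and ODD-only sites, with all their alternatives.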

Additional observations from a re-analysis of the deposited data

Results flagged for a closer look

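Peaks on the organelle genomes stayed out of all comparisons above. Mitochondrial peaks made up 0.985% (0.839 to 1.15) of the ODD 1 list and 0.928% (0.802 to 1.07) of the EVEN 1 list, above the 0.498% (0.383 to 0.636) of the LACZ 1 list. In ODD 2 the share was 0.348% (0.301 to 0.399), below the control. Plastid peaks made up 0.387% (0.287 to 0.511) of the LACZ 1 list. In EVEN 1 and ODD 2 the shares were lower, at 0.145% (0.0978 to 0.207) and 0.0959% (0.0724 to 0.124). The ODD 1 share of 0.337% (0.254 to 0.438) had an interval that overlapped that of LACZ 1. The share depends on how many nuclear peaks were called in each library, and no further ODD or EVEN library was there to repeat it.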

How the results depend on the processing

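No paired analysis was possible because the groups share only replicate number 1. The share of ODD sites shared with EVEN (main 20.1%) was 17.5% with an overlap of 50% of the shorter peak, 10.3% at −log10 q of at least 5, 18.5% with lists of equal length, 23.5% with summit windows, 24.7% with no LACZ filter and 19.1% without pericentromeres. The share of EVEN sites shared with ODD (main 15.4%) was 13.1%, 25.5%, 13.9%, 18.3% and 18.6% under the first 5 of these, and 16.0% with no LACZ 1 peak within 500 bp. At −log10 q of at least 5, 6213 genes had an ODD-only and 2097 an EVEN-only site, the width ratios were 1.12 in ODD 1 and 1.04 in EVEN 1, and the protein-coding difference was 1.81 points. Genes with an EVEN-only site were 7312 where no LACZ-free ODD peak was allowed and 6906 where no deposited ODD peak was, with width ratios in EVEN 1 of 1.41 and 1.43. That ratio was 1.40 with lists of equal length, and the ratio in the ODD list 1.44 without pericentromeres. The pericentromeric difference between ODD-only and EVEN-only sites was −0.928 points with no LACZ 1 peak within 500 bp. The cause of these changes was not tested.

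With one ODD library left out, ODD 1 or ODD 2, the ranges were 16.2% to 19.5% for ODD sites shared, 16.5% to 52.7% for EVEN sites shared, 10528 to 22650 genes with an ODD-only and 7410 to 11933 with an EVEN-only site, width ratios of 1.40 to 1.48 in the ODD list and 1.20 to 1.34 in EVEN 1, protein-coding differences of −7.12 to −3.43, gene-flank differences of 2.68 to 6.52, pericentromeric differences of −1.97 to −0.174 between ODD-only and EVEN-only sites and of −1.80 to 4.80 between shared and ODD-only sites. The values farthest from the main ones were those without ODD 1, except for the pericentromeric difference of −0.174, which was without ODD 2. The excess of ODD-only sites in gene flanks stayed above 0, interval included, in the 12 alternatives run for it, all added after seeing the data. Of the 24 sites named by fold, 14 to 24 stayed in their class. The 14 were where pericentromeres were left out, a setting that removes the named sites lying there rather than changing their class. Without ODD 1, 18 stayed. Depth limits each "only" class, since a site missing from a list may be one the library was too shallow to show.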
